A study of Mus musculus with 31 samples.

Results

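The genes of 10 transcription factors of the AP-1 and small MAF families were followed across 31 libraries of sorted regulatory T cells (Tregs) from mouse tissues. They were taken by symbol from the deposited count table as Fos, Fosb, Fosl1, Fosl2, Jun, Junb, Jund, Atf3, Maff and Mafk, 10 of the 24594 genes in it. All 10 were found, and all 10 were among the 15202 genes that passed the filter on low counts. Of these, 8 also passed on the 18 libraries of blood, spleen and lymph node alone, while Fosl1 and Atf3 passed only through lung, tumor and mammary gland, so that they had to differ between these tissues.

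The cells were live CD45+ CD3+ CD4+ CD8- CD25+ T cells of FVB/N mice, sorted without a gate on FOXP3. KEP mice were K14cre;Cdh1F/F;Trp53F/F, in which a keratin 14 promoter drives Cre in epithelium and deletes E-cadherin and p53 there, and they carried mammary tumors of 225 mm2. WT mice were littermates with genotype wt;Cdh1F/F;Trp53F/F, which carry the same floxed alleles but no Cre. WT libraries pooled the cells of 3 mice, whereas a KEP library held those of 1 mouse. Ages are not given in the sources used here. The 10 groups were KEP tumor, KEP lung, KEP blood, KEP spleen and KEP lymph node, the last being the nodes that drain the tumor, and WT mammary gland, WT lung, WT blood, WT spleen and WT lymph node. WT mammary gland had 4 libraries and each other group had 3. Tissues differed in preparation. Tumors were incubated with collagenase A at 3 mg/mL for 1 h at 37 °C, and lungs of both genotypes with Liberase at 100 µg/mL for 30 min at 37 °C. No enzyme is stated for blood, spleen, lymph node or mammary gland. Digestion and tissue cannot be told apart in lung or tumor, because no lung or tumor library went without it.

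AP-1 is a dimer of basic leucine zipper (bZIP) proteins. JUN proteins pair with each other or with FOS or ATF proteins, whereas FOS proteins need such a partner, and the dimers bind short palindromic DNA elements in promoters and enhancers. Small MAF proteins have a leucine zipper and a DNA-binding region but no activation domain of their own, and act with partners such as NRF2 and BACH proteins. Fos, Fosb, Jun, Junb, Atf3 and Maff are immediate early genes, whose transcripts build up soon after growth factors, antigen receptor signals or cell stress, including the handling of tissue, and decay quickly. In T cells AP-1 also acts with NFAT proteins on cytokine genes.

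Promoter windows of these genes are shown because several hold TGACG, the core of the element bound by CREB and ATF proteins, through which Fos transcription is known to be induced. The windows run from 250 bases before to 50 bases after an annotated start and come from RefSeq on GRCm38.p6, which lists 9 of the 10 genes (Maff with 3 starts, Fosl1 with none). TGACG was searched on both strands and stood in 7 of the 11 member windows, against 20.8% of all 32851 promoter windows of this length. These windows belonged to 6 of the 9 genes. As the windows are shown because several hold TGACG, this count is a description and not a test. The full palindrome TGACGTCA, which contains TGACG on each strand, was found for Maff only, against 1.79% of all windows. No member window held TGANTCA, the usual AP-1 element (7.81% of all windows), or a CArG box, the element of serum response factor (1.63% of all windows), which says only that these letters are not in these windows. In each sequence, written 5′ to 3′ on the strand of the gene, capitals mark TGACG on either strand.
Fos promoter, chr12:85473640-85473939, plus strand: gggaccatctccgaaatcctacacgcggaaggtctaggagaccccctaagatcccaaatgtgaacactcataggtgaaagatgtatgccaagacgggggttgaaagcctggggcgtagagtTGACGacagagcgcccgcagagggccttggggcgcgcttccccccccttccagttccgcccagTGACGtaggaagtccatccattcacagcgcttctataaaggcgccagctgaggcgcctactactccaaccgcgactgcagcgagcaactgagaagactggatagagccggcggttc
Fosb promoter, chr7:19309996-19310295, minus strand: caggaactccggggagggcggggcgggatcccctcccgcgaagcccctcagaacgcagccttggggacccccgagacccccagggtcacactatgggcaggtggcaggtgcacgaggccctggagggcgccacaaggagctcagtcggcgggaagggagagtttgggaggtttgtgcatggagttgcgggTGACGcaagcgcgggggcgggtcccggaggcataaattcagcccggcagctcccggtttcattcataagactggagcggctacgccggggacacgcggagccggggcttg
Junb promoter, chr8:84978699-84978998, minus strand: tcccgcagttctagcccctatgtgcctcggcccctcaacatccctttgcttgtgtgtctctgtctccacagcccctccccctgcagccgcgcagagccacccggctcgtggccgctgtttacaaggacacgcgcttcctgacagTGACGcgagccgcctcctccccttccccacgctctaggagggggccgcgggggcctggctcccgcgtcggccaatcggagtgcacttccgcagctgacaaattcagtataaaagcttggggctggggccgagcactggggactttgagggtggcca
Atf3 promoter, chr1:191183284-191183583, minus strand: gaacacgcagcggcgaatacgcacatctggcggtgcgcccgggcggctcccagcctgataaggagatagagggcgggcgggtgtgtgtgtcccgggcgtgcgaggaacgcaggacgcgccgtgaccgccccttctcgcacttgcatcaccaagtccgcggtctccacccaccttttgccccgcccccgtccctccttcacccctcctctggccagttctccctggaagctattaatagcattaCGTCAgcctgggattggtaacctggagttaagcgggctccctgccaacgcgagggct
Maff promoter, chr15:79347270-79347569, plus strand: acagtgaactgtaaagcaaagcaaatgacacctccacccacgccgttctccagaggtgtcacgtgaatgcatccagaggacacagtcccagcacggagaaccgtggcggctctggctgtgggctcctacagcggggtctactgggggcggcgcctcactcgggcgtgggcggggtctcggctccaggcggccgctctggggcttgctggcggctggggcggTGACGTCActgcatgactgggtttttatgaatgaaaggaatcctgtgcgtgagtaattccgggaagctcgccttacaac
Mafk promoter, chr5:139791286-139791585, plus strand: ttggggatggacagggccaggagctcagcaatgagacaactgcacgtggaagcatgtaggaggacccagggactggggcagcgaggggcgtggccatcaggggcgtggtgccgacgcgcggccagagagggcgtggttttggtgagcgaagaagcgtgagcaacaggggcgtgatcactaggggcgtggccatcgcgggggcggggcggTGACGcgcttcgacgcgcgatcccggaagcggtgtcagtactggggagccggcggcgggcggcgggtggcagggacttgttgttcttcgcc
In Fos the matches begin 129 and 66 bases before the start, in Junb 106, in Fosb 60 and in Mafk 41 bases before it. The Maff palindrome begins 29 bases before the start, and the Atf3 match, on the reverse strand, 7 bases before it. Another Maff window, not printed, held TGACG on the reverse strand 122 bases before its own start. The windows of Jun, Fosl2 and Jund held no TGACG. Elements that differ from the searched letters were not looked for, so their absence is not shown. A match is a description of the letters and not a measured binding site.

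Total counts ran from 8154765 to 15258958 per library, from 4500 to 70000 sorted cells. The labelled cell type was checked with 10 pan-T genes, whose summed share of the total counts was set against the mean of WT spleen. They stood at 73.9% to 86.1% in lung and 84.7% to 104% in blood, spleen and lymph node. They stood at 91.4%, 56.1% and 29.3% in KEP tumor replicates 1, 2 and 3, and at 7.93%, 29.8%, 2.83% and 3.33% in WT mammary gland replicates 1 to 4. Foxp3, the gene that defines Tregs, stood at 1611, 846 and 462 CPM in KEP tumor and at 93.5, 417, 18.7 and 31.3 CPM in WT mammary gland. It stood at 1379 to 1476 CPM in KEP lung, 908 to 1123 CPM in WT lung and 716 to 1747 CPM elsewhere. In bulk libraries fewer cells of a type and less RNA per cell cannot be told apart. CPM are counts scaled to the library total, corrected by TMM factors except where marker lists are summed, values are listed in replicate order, and means are given ± SD.

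**Figure D1:**
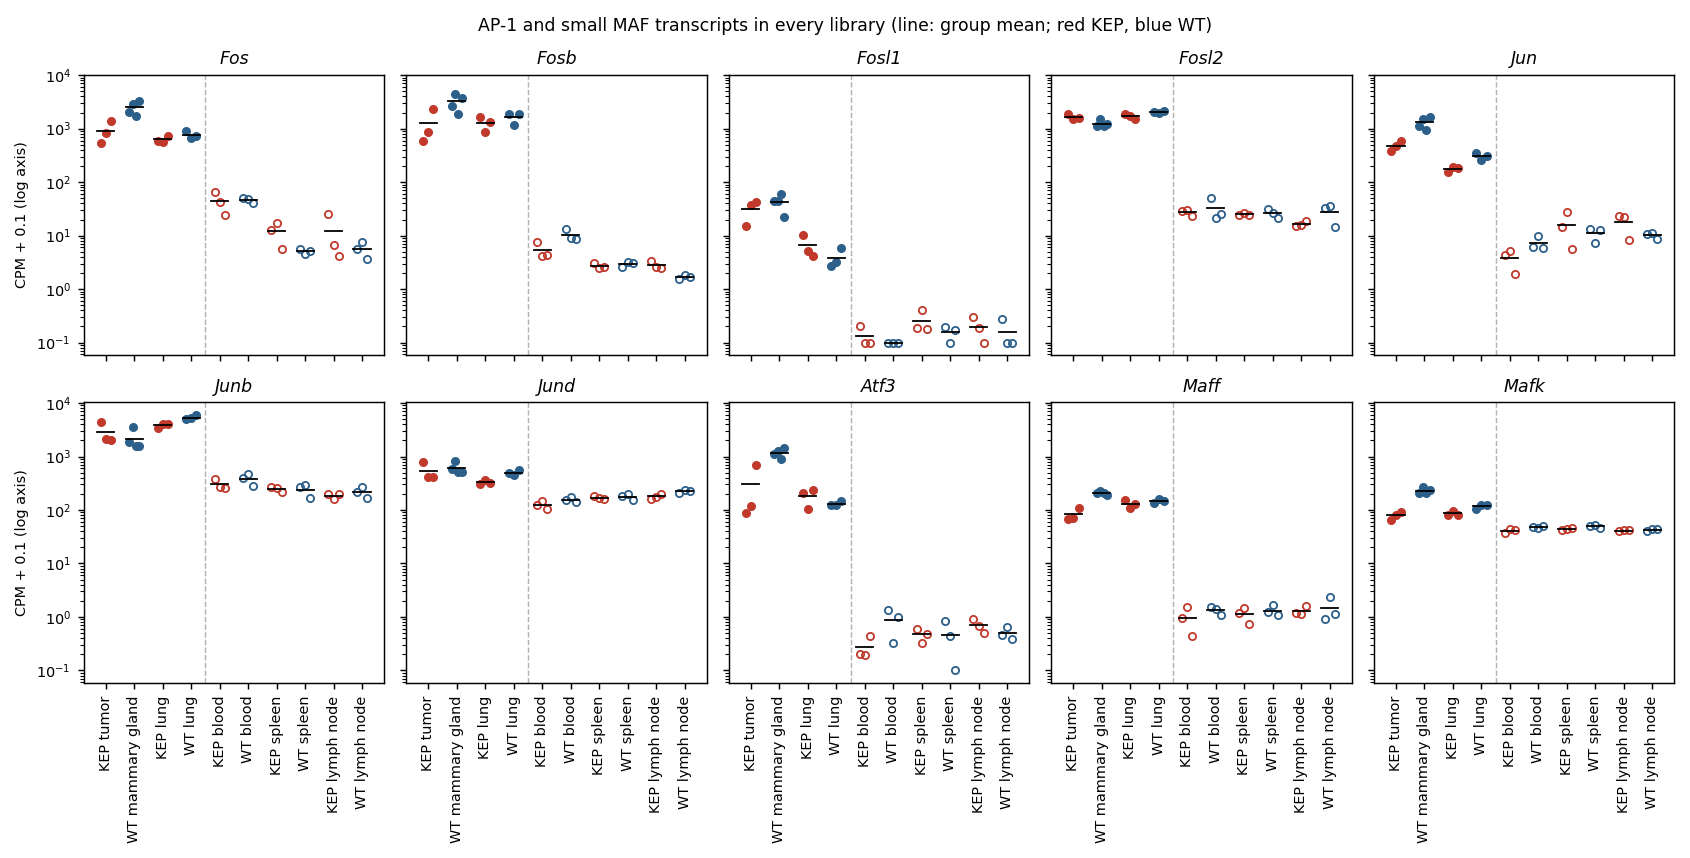
Level of each gene in every library on a log axis (CPM + 0.1), by tissue, with KEP in red left of WT in blue; filled points are tumor, mammary gland and lung, open points are blood, spleen and lymph node, and short lines are group means. For all 10 genes every filled point lies above every open point, by little for Jund and Mafk.

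All 10 genes were higher in lung than in blood, spleen and lymph node of the same genotype, and the same held in tumor and in mammary gland. The question this set of comparisons addresses is how libraries sorted as Tregs from a tissue differ from those of blood and lymphoid organs. Pan-T genes stood at only 2.83% to 29.8% of the WT spleen mean in mammary gland, and at 29.3% in tumor replicate 3. The levels in such libraries cannot be assigned to Tregs. In WT lung 10 of 10 genes were called higher and none lower, where 17.9% of all 15202 genes were called higher and 13.5% lower (edgeR quasi-likelihood test, Benjamini-Hochberg adjusted p below 0.05). In KEP lung 10 of 10 were called higher and none lower, against 18.7% and 15.6% of all genes. In KEP tumor 10 of 10 were called higher and none lower, against 39.4% and 28.8% of all genes, and in WT mammary gland 10 of 10 were called higher, against 46.5%. Without Fosl1 and Atf3, which the filter let through on these tissues, all 8 others were called higher in each of the 4 comparisons. Their median log2 fold change was 5.61 in tumor, 6.29 in mammary gland, 4.62 in KEP lung and 5.58 in WT lung, while the median of all tested genes was 0.11, 0.20, 0.00 and 0.01. The tissues share the blood, spleen and lymph node libraries of their genotype as controls, so these are not 4 independent results.

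The groups did not overlap. Every one of the 6 lung libraries lay above all 18 blood, spleen and lymph node libraries for all 10 genes, a pattern met by 7.72% of all genes. The same held for every tumor library, a pattern of 22.6% of all genes, and for every mammary gland library, a pattern of 33.5%. Among the 10 genes, Fosl1 and Atf3 had passed the filter only through these tissues. The gap was wide for most genes and narrow for a pair of them. The lowest lung library stood above the highest of the 18 by 83.1-fold for Atf3, 66.3-fold for Fosb, 49.1-fold for Maff and 30.2-fold for Fosl2, but by 1.57-fold for Mafk and 1.31-fold for Jund. Ranked by p over all tested genes, Maff was number 1 and Fosl2 number 2 in both lung comparisons.

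**Figure D2:**
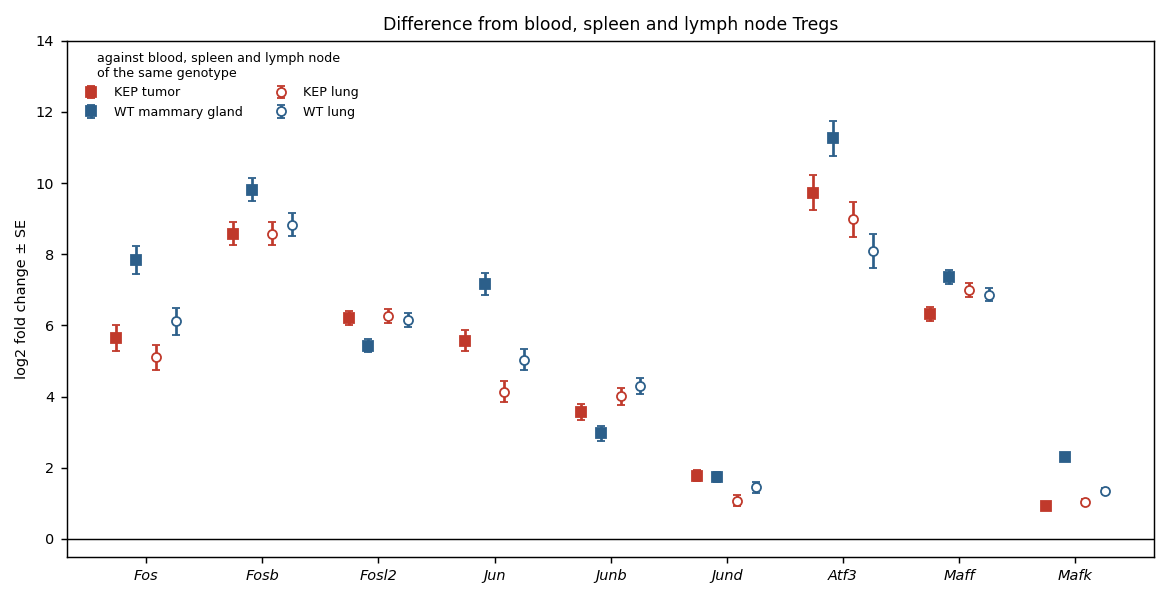
Log2 fold change with its SE of 9 genes (without Fosl1, whose counts are near 0 in blood, spleen and lymph node) in KEP tumor, WT mammary gland, KEP lung and WT lung, each against blood, spleen and lymph node of the same genotype. Jund and Mafk lie between 0.92 and 2.30, the other genes at 2.97 or more.

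Among the FOS proteins, Fos itself (GRCm38 chromosome 12, 85473890 to 85477273) is the family's best known immediate early member. It had 533, 822 and 1411 CPM in KEP tumor and 2023, 2947, 1713 and 3344 CPM in WT mammary gland. It had 591, 569.8 and 742 CPM in KEP lung and 893, 665 and 718 CPM in WT lung. Blood was the highest of the other tissues, at 65.1, 42.5 and 23.8 CPM in KEP and 50.6, 47.8 and 41.3 CPM in WT, and the order of means was mammary gland, tumor, WT lung, KEP lung, blood and then lymph node and spleen. Lymph node and spleen ranged from 4.03 to 25.4 CPM in KEP and from 3.63 to 7.65 CPM in WT. Tumor overlapped WT lung, the lungs overlapped each other and the bloods overlapped each other, while mammary gland lay above tumor without overlap. The log2 fold change against blood, spleen and lymph node was 5.10 in KEP lung (SE 0.36) and 6.12 in WT lung (SE 0.37, adjusted p = 4.15e-12).

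Fosb (chromosome 7, 19302721 to 19310045), a FOS paralog with similar partners, had 584, 882 and 2369 CPM in KEP tumor and 2709, 4541, 1865 and 3811 CPM in WT mammary gland. It had 1645, 862 and 1331 CPM in KEP lung and 1886, 1172 and 1850.5 CPM in WT lung. It was nearly silent in the other tissues, at 7.63, 3.98 and 4.21 CPM in KEP blood and 13, 8.89 and 8.50 CPM in WT blood. Spleen and lymph node of both genotypes ranged from 1.43 to 3.18 CPM. Mammary gland, lung and tumor overlapped in pairs along their order. Its log2 fold change was 8.58 in KEP lung (SE 0.32) and 8.83 in WT lung (SE 0.32, adjusted p = 2.73e-16), the 5th and the 3rd highest of all tested genes.

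Fosl2 (chromosome 5, 32136472 to 32157831), which encodes FRA2, a FOS relative with slower kinetics, differed from Fos and Fosb in its order: WT lung was highest and mammary gland lowest of these 4 groups. It had 1841, 1529.8 and 1605 CPM in KEP tumor and 1111, 1537, 1098 and 1211 CPM in WT mammary gland. It had 1889, 1746 and 1539 CPM in KEP lung and 2049, 1952 and 2117 CPM in WT lung. The 18 other libraries ranged from 14.6 to 51.0 CPM. The log2 fold change was 6.27 in KEP lung (SE 0.20) and 6.15 in WT lung (SE 0.20, adjusted p = 4.12e-17).

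Fosl1 (chromosome 19, 5447703 to 5455945), which encodes FRA1, was the least abundant. It had 15.2, 37.5 and 42.3 CPM in KEP tumor, 44.7, 44.6, 60.0 and 22.4 CPM in WT mammary gland, 10.3, 4.95 and 4.07 CPM in KEP lung and 2.55, 3.07 and 5.65 CPM in WT lung. In blood, spleen and lymph node it had 0 to 4 counts per library, and 0 in all 3 WT blood libraries. Taking 3 counts over the WT blood group as the limit that a count of 0 allows, WT lung was at least 36.1-fold higher than WT blood. Pooled over libraries, WT lung had 90.4 times the level of WT blood, spleen and lymph node (96 against 4 counts, 95% exact interval 34.2 to 338.3, counting error only). KEP lung had 65.5 times the level of the KEP tissues (221 against 11 counts, 35.9 to 133). Fosl1 passed the filter only through lung, tumor and mammary gland, so the direction of this difference was set beforehand. Ccdc85b, an overlapping gene on the other strand, had 21 to 57 counts in the lung libraries and 68 to 107 in WT blood, and as the strand setting of the counting is not given in the sources used here, the counts of Fosl1 are uncertain.

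Of the JUN proteins, Jun (chromosome 4, 95049034 to 95052222) encodes the founding partner of FOS. It had 378, 467 and 599 CPM in KEP tumor and 1123, 1526, 962 and 1653 CPM in WT mammary gland. It had 157, 189 and 187 CPM in KEP lung and 344, 255 and 312 CPM in WT lung. Its 4 tissue groups had no overlap with their neighbours in the order mammary gland, tumor, WT lung, KEP lung. In spleen and lymph node Jun ranged from 5.46 to 27 CPM in KEP and from 7.03 to 13.1 CPM in WT. It was lowest in blood, at 4.28, 4.97 and 1.80 CPM in KEP and 6.03, 9.66 and 5.86 CPM in WT, where blood overlapped spleen. For Jun the log2 fold change was 4.14 in KEP lung (SE 0.30) and 5.04 in WT lung (SE 0.30, adjusted p = 2.99e-12). Junos, an antisense gene at Jun, had 0 to 6 counts in all libraries but those of tumor (9 to 28) and mammary gland (50 to 91, where Jun had 14716 to 24015).

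Junb (chromosome 8, 84976909 to 84978748), a JUN paralog with a part in T helper and Treg differentiation, was already high in blood and lymphoid organs. It had 4372, 2161 and 2010.5 CPM in KEP tumor and 1837, 3585, 1554 and 1542 CPM in WT mammary gland. It had 3457, 3997 and 4138 CPM in KEP lung and 4973, 5183 and 5936 CPM in WT lung, against 163 to 475 CPM in the other 18 libraries. WT lung stood above KEP lung without overlap, and KEP lung, tumor and mammary gland overlapped along their order. The log2 fold change was 4.00 in KEP lung (SE 0.23) and 4.30 in WT lung (SE 0.23, adjusted p = 1.78e-13).

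Jund (chromosome 8, 70697739 to 70700616), the JUN gene with the steadiest expression in most cells, differed less between tissues than Jun and Junb. It had 775, 421 and 408 CPM in KEP tumor and 589, 840.2, 520.2 and 511 CPM in WT mammary gland. It had 308, 359 and 319 CPM in KEP lung and 486, 454 and 563 CPM in WT lung, against 104 to 235 CPM elsewhere. Its log2 fold change was 1.07 in KEP lung (SE 0.15, adjusted p = 6.03e-06) and 1.45 in WT lung (SE 0.15, adjusted p = 5.6e-08), and both comparisons ranked it far down the list by size, at 2061 and 1829 of the tested genes. Gm11175, an overlapping gene, had 16 to 157 counts per library.

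Atf3 (chromosome 1, 191170296 to 191183340), a stress-induced bZIP factor that pairs with JUN proteins, was close to 0 outside lung, tumor and mammary gland. It had 88.4, 120.4 and 707 CPM in KEP tumor, 1111, 1276, 916 and 1446 CPM in WT mammary gland, 207, 104 and 236 CPM in KEP lung and 124, 125 and 146 CPM in WT lung. The 18 other libraries had at most 1.25 CPM. Tumor replicate 3 stood apart from the other 2 tumor libraries and the lungs overlapped each other. Pooled counts of KEP lung stood 455.5 times above those of KEP blood, spleen and lymph node (95% exact interval 338.9 to 627.5, counting error only). Those of WT lung stood 268.2 times above the WT tissues (201.2 to 365.7, 3348 against 47 counts). Atf3 passed the filter only through lung, tumor and mammary gland, so the direction of this difference was set beforehand.

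The small MAF genes differed in kind. Maff (chromosome 15, 79347541 to 79359072) behaved like the immediate early genes. It had 68.7, 71.4 and 108 CPM in KEP tumor, 205, 226, 210.4 and 187 CPM in WT mammary gland, 157, 109 and 131 CPM in KEP lung and 137, 161 and 146 CPM in WT lung. Elsewhere it ranged from 0.343 to 2.22 CPM, and the groups of blood, spleen and lymph node overlapped their neighbours in the order of means. Its log2 fold change was 7.0 in KEP lung (SE 0.20, adjusted p = 2.08e-18) and 6.87 in WT lung (SE 0.19, adjusted p = 2.81e-18).

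Mafk (chromosome 5, 139791513 to 139802653), the paralog that pairs with the same NRF2 and BACH partners, had a steady level in every lymphoid library, from 36.6 to 51.3 CPM over all 18. It had 65.5, 81.3 and 91.4 CPM in KEP tumor and 204, 267, 209.8 and 236 CPM in WT mammary gland. It had 81.3, 96.0 and 80.5 CPM in KEP lung and 107, 124 and 123 CPM in WT lung. For Mafk the log2 fold change was 0.92 in tumor (SE 0.09), 2.30 in mammary gland, 1.03 in KEP lung (SE 0.09) and 1.34 in WT lung (SE 0.09, adjusted p = 5.57e-12). Scaled to the pan-T genes, the KEP lung value was 1.04 and was not called (adjusted p = 0.111). Tmem184a, a gene that overlaps Mafk, had 0 to 2 counts in blood, spleen, lymph node and lung, 5 to 124 in tumor and 373 to 718 in mammary gland, where Mafk had 2700 to 3423, so that the mammary gland level is uncertain.

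Set per kb of exon, which allows genes to be compared, Junb led in lung at 1679 CPM per kb in KEP and 2331 in WT, followed by Fos at 270 and 323 CPM per kb. In tumor Junb stood at 1238, Fos at 391.99 and Jund at 321 CPM per kb. In mammary gland the order was another one, with Fos at 1066, Junb at 926, Atf3 at 551, Fosb at 518 and Jun at 413 CPM per kb. In KEP blood Junb led at 131 CPM per kb, followed by Jund at 74.5 and Fos at 18.6, and in WT spleen Jund (107) and Junb (105) were level.

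Markers of other cells moved with the tissues. Summed epithelial markers were 23.1 to 31.1 CPM in KEP lung, 14.1 to 23.1 in WT lung, 159 to 2291 in tumor, 5207 to 7206 in mammary gland and 6.68 to 44.1 elsewhere. Summed macrophage and monocyte markers were 34.8 to 74.6 in KEP lung, 91.6 to 157 in WT lung, 701 to 5187 in tumor, 64.1 to 155 in mammary gland and 8.27 to 81.0 elsewhere. In lung the epithelial gene Krt5 and the macrophage gene Ms4a7 were at 0 in all 6 libraries. Every gene of the C1q complex was below 1 CPM there. These are single genes of lists whose sums were above 0. The macrophage and monocyte sum of WT lung lay above that of WT blood (42.4 to 53.1 CPM). WT spleen and lymph node lay lower, from 8.27 to 16.9 CPM. In KEP lung the sum overlapped that of KEP blood (49.4 to 81.0 CPM). Summed lung epithelium markers were 12.1 to 29.1 CPM in KEP lung, 18.3 to 19.1 in WT lung and 8.32 to 24.5 in blood, spleen and lymph node. The endothelial gene Cdh5 stood at 4.07 to 21.8 CPM in KEP lung and 10.6 to 15.8 CPM in WT lung, against at most 0.416 CPM in WT blood. Stroma and endothelium had the highest sum of such a list in lung, 184 to 263 CPM, most of it Pecam1, which stood at 157 to 187 CPM in WT spleen too. Of its 8 genes 5 were called higher in KEP lung and 6 in WT lung than in the other tissues (median log2 fold change 2.32 and 4.47). Of 9 macrophage and monocyte genes 1 was called higher in KEP lung and 3 in WT lung. The shares of all genes called higher were 18.7% in KEP lung and 17.9% in WT lung. In tumor, stroma and endothelium had the highest sum, 3925 to 9339 CPM, against 1702 to 4723 CPM in mammary gland. Neutrophil markers summed to 121, 2463 and 78.6 CPM in the 3 tumor libraries. In mammary gland milk and fat cell transcripts alone reached 5379 to 26980 CPM. The part of these cells in the tissue levels was not tested.

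**Figure D3:**
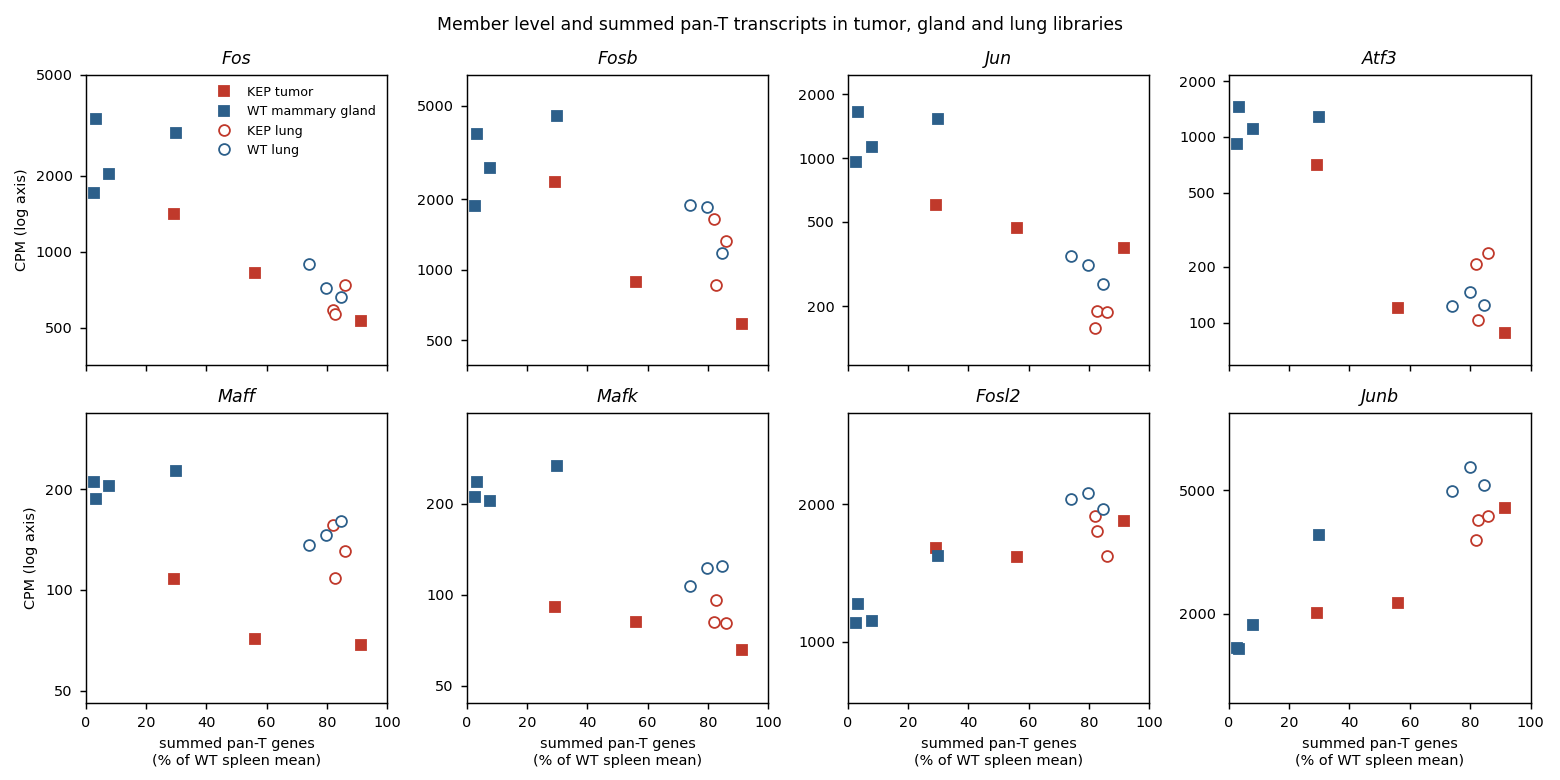
Level of 8 genes (CPM) against the summed pan-T transcripts of the same library (percent of the WT spleen mean) in tumor, mammary gland and lung libraries. In mammary gland the pan-T sum lies between 2.83% and 29.8% and the mean levels of Fos, Fosb, Jun, Atf3, Maff and Mafk are the highest of the 4 groups, and in lung it lies between 73.9% and 86.1%.

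Tumor was compared with healthy mammary gland, the tissue it arose in. Of the 10 genes 6 were lower in tumor and none was higher, where 29.5% of all genes were called lower and 23.5% higher. Of the 8 genes that passed the filter without these tissues, 5 were lower. The 6 were Fos, Fosb, Jun, Atf3, Maff and Mafk, while Fosl1, Fosl2, Junb and Jund did not pass the test. Mafk averaged 79.4 ± 13 CPM in tumor and 229 ± 28.7 CPM in mammary gland (log2 fold change -1.53, SE 0.11, adjusted p = 3.22e-10). Maff averaged 82.7 ± 22.1 CPM in tumor and 207 ± 15.9 CPM in mammary gland (-1.32, SE 0.21, adjusted p = 1.29e-05). For both, every tumor library lay below every mammary gland library.

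Atf3 averaged 305 ± 348 CPM in tumor and 1187 ± 227 CPM in mammary gland (-1.96, SE 0.48, adjusted p = 0.00157). Jun averaged 481 ± 111 CPM in tumor and 1316 ± 327 CPM in mammary gland (-1.45, SE 0.38, adjusted p = 0.00253). Fosb averaged 1278 ± 956 CPM in tumor and 3232 ± 1182 CPM in mammary gland (-1.34, SE 0.35, adjusted p = 0.00282), with tumor replicate 3 inside the range of mammary gland. Fos averaged 922 ± 447 CPM in tumor and 2507 ± 766 CPM in mammary gland (-1.44, SE 0.46, adjusted p = 0.0104), and without tumor replicate 1 it was not called (-1.14, adjusted p = 0.069). Fosl2 was 0.42 (adjusted p = 0.14) and Junb 0.42 (adjusted p = 0.219). With only the 7 libraries of this comparison in the fit, Fosb (adjusted p = 0.124) and Atf3 (adjusted p = 0.0969) were not called, and with sorted cell number as a covariate Jun was not (-1.21, adjusted p = 0.0714).

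The libraries of tumor and mammary gland varied among themselves. Tumor replicate 3, with the lowest pan-T share, was the highest tumor library for 7 genes (Fos, Fosb, Fosl1, Jun, Atf3, Maff and Mafk), and tumor replicate 1, with the highest pan-T share, was the highest for Fosl2, Junb and Jund. In mammary gland replicate 2, with the highest pan-T share, was the highest for 6 genes (Fosb, Fosl2, Junb, Jund, Maff and Mafk). Mammary gland replicate 4, with a pan-T share of 3.33%, was the highest for Fos, Jun and Atf3, and replicate 3 (2.83%) for Fosl1. How many of all genes peak in each library was not counted. Scaled to the pan-T genes, the median of all genes moved by -3.32 between tumor and mammary gland. All 10 members were then called lower, as were 13994 of all 15202 genes. The median of the members was -4.27, against -3.41 for all genes. Tumor replicate 1 alone, taken as the tumor group after seeing the data, gave 1.03 for Junb, a value of 1 library with no spread of its own. Without tumor replicate 1 Jund was -0.54 (adjusted p = 0.0132), and without mammary gland replicate 2 Junb was 0.81 (adjusted p = 0.00956). Since the mammary gland has no stated digestion and tumors do, the enzyme step, the tissue and the genotype cannot be told apart here.

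Against KEP lung, the other digested tissue of that genotype, tumor had 3 of 10 genes higher and 1 lower, where 32.1% of all genes were called higher and 21.6% lower. Fosl1 averaged 31.7 ± 14.4 CPM in tumor and 6.46 ± 3.40 CPM in KEP lung (log2 fold change 2.29, SE 0.48, adjusted p = 0.000384). Jun was 1.44 (SE 0.40, adjusted p = 0.00387) and Jund 0.70 (SE 0.20, adjusted p = 0.0049), all without overlap between the groups. Without tumor replicate 1 Jund was 0.34 (adjusted p = 0.106). Tumor replicate 1 alone, 1 library with no spread of its own, gave 1.24 for Fosl1 and 1.09 for Jun. Maff was -0.68 (SE 0.21, adjusted p = 0.0106), was not called without KEP lung replicate 1 (adjusted p = 0.0651) or tumor replicate 2 (adjusted p = 0.0531), and turned to 0.34 when scaled to the pan-T genes. Fosl2 was -0.06 and Mafk -0.11, neither called. Fosb was 0.00 and rested on tumor replicate 3, without which it was -0.79 (adjusted p = 0.0406). Atf3 was not called either, but was -0.80 (adjusted p = 0.0413) without tumor replicate 3 and 1.18 (adjusted p = 0.0266) without tumor replicate 1, and without tumor replicate 1 Junb was -0.89 (adjusted p = 0.0182).

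Mammary gland had 7 of 10 genes higher and 2 lower than WT lung, where 42.3% of all genes were called higher and 30.7% lower. Fosl1 was 3.51 (adjusted p = 1.9e-06), Atf3 3.17 (adjusted p = 7.74e-06), Jun 2.12 (adjusted p = 3.97e-05), Fos 1.72 (adjusted p = 0.00186) and Mafk 0.96 (adjusted p = 3.13e-08). Fosb (0.98, adjusted p = 0.0144) was lost without mammary gland replicate 2 (adjusted p = 0.0518) or WT lung replicate 2 (adjusted p = 0.086). Maff (0.49, adjusted p = 0.033) was lost without any of the 3 WT lung libraries or without mammary gland replicate 2 or 3 (adjusted p = 0.0511 to 0.134). Junb (-1.33, adjusted p = 0.000198) and Fosl2 (-0.72, adjusted p = 0.00903) were lower in mammary gland, and Jund did not pass the test at 0.30. With the library scaled to the pan-T genes, where the median of all genes moved by 4.12, Junb was 2.45 and Fosl2 3.31. Mammary gland replicate 2 alone, again 1 library, gave -0.59 for Junb and -0.41 for Fosl2.

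Within a tissue, few of these genes passed the test between KEP and WT Tregs. In lung, digested the same way in both genotypes, 1 of 10 genes was called lower in KEP and none higher, where 1.42% of all genes were called lower and 1.66% higher. That gene was Mafk, which averaged 85.9 ± 8.74 CPM in KEP lung and 118 ± 9.89 CPM in WT lung (log2 fold change -0.46, SE 0.11, adjusted p = 0.0257). Its groups did not overlap, and over all alternatives the value ran from -0.55 to -0.41. Without KEP lung replicate 2 it was still called (adjusted p = 0.0341), but without any other lung library it was not (adjusted p = 0.0502 to 0.167).

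Every KEP lung library lay below every WT lung library for 5 of the 10 genes, Fosl2, Jun, Junb, Jund and Mafk, a pattern of 15.5% of all genes. Jund averaged 328 ± 27 CPM in KEP lung and 501 ± 56.2 CPM in WT lung (-0.61, SE 0.20, adjusted p = 0.0912), and fitted without the tumor and mammary gland libraries its adjusted p was 0.000985. Jun averaged 178 ± 17.8 CPM in KEP lung and 304 ± 44.9 CPM in WT lung (-0.77, SE 0.39, adjusted p = 0.287). Junb averaged 3864 ± 359 CPM in KEP lung and 5364 ± 506 CPM in WT lung (-0.47, SE 0.30, adjusted p = 0.428). With only the 6 lung libraries in the fit, Jun (adjusted p = 0.00272), Jund (0.005) and Junb (0.0177) were called beside Mafk. The other 5 genes overlapped between the genotypes, among them Atf3 at 0.47, Fosb at -0.36 and Fos at -0.26.

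In the tissues without a stated digestion none of the 10 genes was called between KEP and WT by edgeR, and none by DESeq2. In blood 4.32% of all genes were called either way, in spleen 0.447% and in lymph node 0.0132%. At an unadjusted p below 0.05, 1 gene passed in blood, 1 in spleen and 2 in lymph node. Of all 15202 genes, 2823 passed in blood, 1214 in spleen and 874 in lymph node. In blood Jun was -0.97 (SE 0.48, adjusted p = 0.279), Fosb -0.95 (SE 0.42, adjusted p = 0.213) and Mafk -0.23 (adjusted p = 0.273). Fitted with the 24 libraries of the 4 tissues alone, Fosb in blood was called at -0.99 (adjusted p = 0.031). In spleen Fos was 1.26 (SE 0.53, adjusted p = 0.513), at 12.7, 17.5 and 5.62 CPM in KEP spleen and 5.54, 4.46 and 5.01 CPM in WT spleen. In lymph node Fosl2 was -0.75 (unadjusted p = 0.00957, adjusted p = 0.662), at 14.8, 16 and 18.4 CPM in KEP and 32.5, 35.7 and 14.6 CPM in WT. There Fos was 1.12 (adjusted p = 0.844), its KEP level resting on replicate 1 at 25.4 CPM beside 6.49 and 4.03 CPM.

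The difference between KEP and WT in the lung comparison itself was tested as an interaction. None of the 10 genes was called by edgeR or DESeq2, where 0.0% of all genes were called by edgeR, and 1 member and 511 of all genes had an unadjusted p below 0.05. That member was Mafk, at -0.31 (unadjusted p = 0.0214, adjusted p = 1). No date in the library titles held both genotypes, so any effect of that date and the genotype cannot be told apart.

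**Figure D4:**
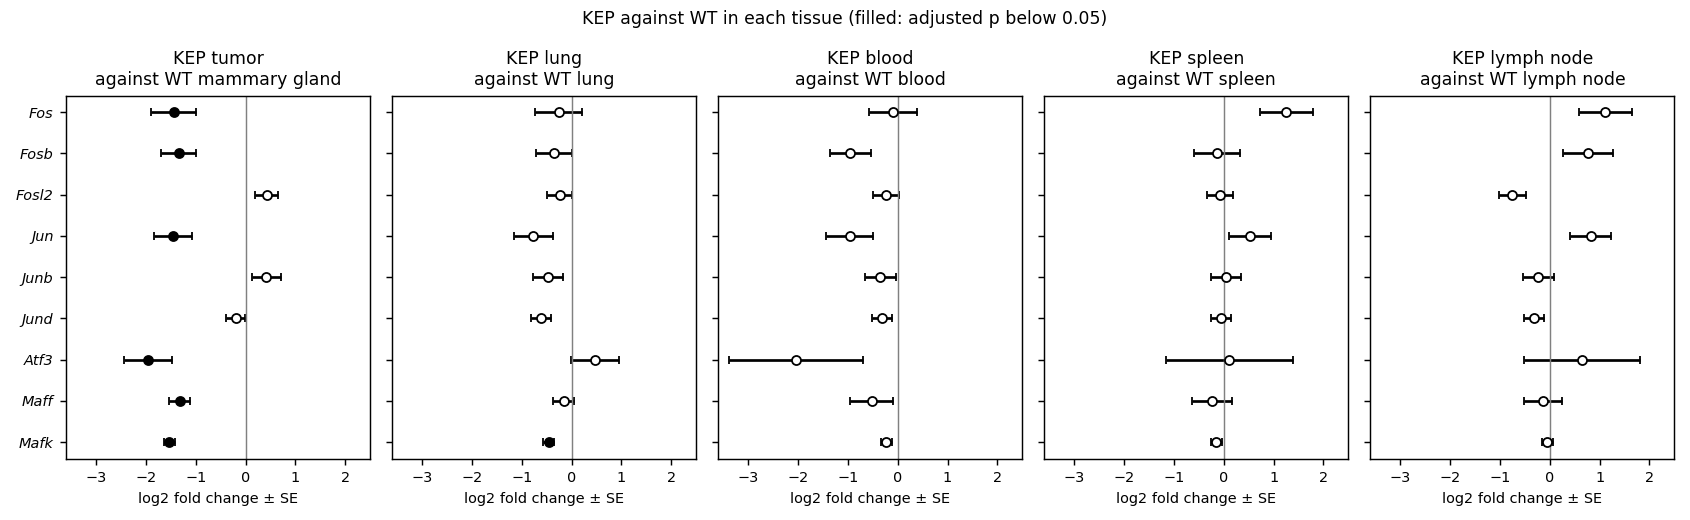
Log2 fold change with its SE of 9 genes (without Fosl1) for KEP tumor against WT mammary gland and for KEP against WT in lung, blood, spleen and lymph node; filled points have an adjusted p below 0.05. In the tumor comparison Fos, Fosb, Jun, Atf3, Maff and Mafk are filled and lie below 0, and within tissues only Mafk in lung is filled.

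Blood, spleen and lymph node, none with a stated digestion, were also compared with each other. In WT blood 2 of 10 genes were higher than in WT spleen, where 4.48% of all genes were called higher. They were Fos (log2 fold change 3.22, SE 0.54, adjusted p = 0.000486) and Fosb (1.81, SE 0.43, adjusted p = 0.0109), which was not called without WT blood replicate 1 (adjusted p = 0.0597). In KEP blood 1 gene was higher and 1 lower than in KEP spleen, where 3.85% and 3.38% of all genes were. Fos was 1.87 (SE 0.50, adjusted p = 0.023) and was not called without KEP spleen replicate 1 or 3 or KEP blood replicate 1 (adjusted p = 0.0807, 0.122 and 0.147). Jun was -2.10 (SE 0.46, adjusted p = 0.00637) and was not called without KEP spleen replicate 2 (adjusted p = 0.0684). Fitted with the 24 libraries of the 4 tissues alone, Jund was called lower in KEP blood at -0.48 (adjusted p = 0.00571). With only the libraries compared, Jund was called at -0.47 (adjusted p = 0.0147) and Fosb was called higher at 0.99 (adjusted p = 0.0413). With the 24 libraries, Junb was called higher in WT blood than in WT spleen, at 0.68 (adjusted p = 0.033). Between lymph node and spleen no member was called in either genotype by edgeR or DESeq2 over all 31 libraries. By edgeR, 1.62% of all genes were called in KEP and 1.95% in WT. At an unadjusted p below 0.05, 1 member passed in KEP and 0 in WT, where 1796 and 1576 of all 15202 genes did. With only the libraries compared in the fit, Fosl2 was called lower in KEP lymph node than in KEP spleen (-0.61, adjusted p = 0.00608). The same held for Junb (-0.42, adjusted p = 0.0282).

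Other genes of the same pathways were read from lists. Among 22 further immediate early and dissociation-induced genes, 21 were higher in KEP lung and 22 in WT lung. Of all genes, 18.7% and 17.9% were called higher there. In this list the median log2 fold change was 2.95 and 2.80. Examples are Ppp1r15a, which restarts translation after stress, at 1789 ± 153 CPM in KEP lung and 43.2 ± 11.6 CPM in the other KEP tissues (5.40, SE 0.19), and at 1688 ± 198 CPM in WT lung and 51.6 ± 23.6 CPM in the other WT tissues (5.12, SE 0.19). The orphan nuclear receptor Nr4a1, induced by antigen receptor signals, was 5.37 in KEP lung and 4.79 in WT lung, and Csrnp1 4.05 and 3.55. In tumor 21 were higher and 1 lower than in KEP blood, spleen and lymph node, in mammary gland 22 were higher, and between tumor and mammary gland 3 were higher and 10 lower in tumor, among them Socs3, an inhibitor of cytokine signals, at -1.75 (adjusted p = 1.21e-08). The shares of all genes were 39.4% higher and 28.8% lower in tumor, 46.5% higher in mammary gland, and 23.5% higher and 29.5% lower between tumor and mammary gland. Between KEP and WT lung only Nfkbiz, a nuclear regulator of NF-κB, passed, at 1.09 (adjusted p = 0.0248), where 1.66% of all genes were called higher. Summed over the list, levels were 11462 to 16619 CPM in tumor, 12570 to 18463 in mammary gland, 14825 to 17004 in lung and 2367 to 3306 in blood, spleen and lymph node.

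Of 18 other bZIP genes that can pair with these factors, 6 were higher and 2 lower in KEP lung, and 5 higher and 1 lower in WT lung, where 18.7% and 15.6% of all genes were called higher and lower in KEP lung, and 17.9% and 13.5% in WT lung. Crem, a cAMP-responsive bZIP gene, was 4.14 in KEP lung and 4.41 in WT lung, and Nfil3, a bZIP repressor, 3.78 and 3.84. Nfil3 was also higher in KEP than in WT lung (0.69, adjusted p = 0.0491), whereas Atf4, the factor of the integrated stress response, was lower there (-0.40, adjusted p = 0.0453). Of 17 MAP kinase genes and phosphatases, 9 were higher and 0 lower in KEP lung, and 10 higher and 1 lower in WT lung. The phosphatases that switch MAP kinases off led them, with Dusp4 at 4.58 in KEP lung and 4.20 in WT lung, Dusp10 at 4.25 and 4.31, and Dusp5 at 2.68 and 3.13. Of 5 genes of serum response factor and its partners none passed in either lung comparison (smallest adjusted p 0.141 in KEP lung, Elk4, and 0.107 in WT lung, Mkl1).

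Of 10 NRF2 and small MAF target genes, 5 were higher in KEP lung, 2 in WT lung and none was lower, with small changes such as the ferritin light chain gene Ftl1 at 0.65 in KEP lung and 0.76 in WT lung. Of 10 effector genes of T cells with reported AP-1 control, 8 were higher in KEP lung and 6 in WT lung. Areg, the tissue repair factor amphiregulin, was 7.15 in KEP lung (214 ± 44.6 CPM against 1.55 ± 0.885 CPM in the other KEP tissues) and 5.87 in WT lung, and Il10 3.69 and 2.82. Of 11 Treg identity genes, 3 were higher and 1 lower in each lung comparison, and Ctla4, an inhibitory receptor of Tregs, was 2.33 in KEP lung and 2.27 in WT lung. These counts stand beside the backgrounds of 18.7% and 17.9% of all genes called higher.

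Likeness was measured over the 24 libraries other than tumor and mammary gland as Pearson's r of log2 CPM, among 9725 genes with a mean of at least 5 CPM, and is a description over libraries that share tissues, since nearly any gene that is high in lung correlates with another. The genes most like Fos were Cited2 (r = 0.973), Zc3hav1 (0.971), Tiparp (0.966), Rnf125 (0.963) and Dnajb6 (0.962). Cited2 averaged 226 ± 33.7 CPM in KEP lung, 260 ± 16.3 CPM in WT lung, 104 ± 15.31 CPM in KEP blood and 105 ± 11.5 CPM in WT blood, above 44.0 to 50.4 CPM in spleen and lymph node. Among the genes most like Mafk were Brd2 (0.991), Mepce (0.983) and Slc3a2 (0.978). After the group means were taken out, Fos and Jun deviated together most closely of the 45 pairs of members (r = 0.751), and Fosb and Mafk lay at the other end (r = -0.654), over the same 24 libraries. These are not independent: in KEP spleen, lymph node and blood, replicate 3, of 1 shared title date, was the lowest library for both Fos and Jun.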

How the data were processed

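RNA of sorted Tregs was measured in 31 libraries. The authors deposited raw read counts per gene, whole numbers with no normalization; a stranded mRNA kit and single reads were used, per the labels' protocols. TopHat2 2.1.0, TopHat and HTSeq with GRCm38 are named in the submitters' processing notes; the annotation release and the strand setting of the counting are not given in the sources used here, so genes that overlap a member are named with their counts. Depth ran from 8154765 to 15258958 counts per library; intervals and limits for low counts cover counting error only, at 95% and with a floor of 3 counts.

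Every gene was tested with edgeR 4.0.16 (R 4.3.3): robust quasi-likelihood F test, TMM factors, the filterByExpr filter at a minimum count of 10, 1 mean for each of 10 groups over all 31 libraries, and Benjamini-Hochberg adjustment over 15202 genes, called below 0.05. Adjusted p-values without another name come from it. The SE in text and figures is an approximation, the absolute log2 fold change divided by the square root of the F statistic. The code was tested on simulated data. Nothing in the labels says that libraries of a group are separate experiments beyond their mice, so p-values measure the spread between these libraries. Named list genes are up to 4 called members with the smallest p, or the member with the smallest p. Members, lists and tests were chosen with earlier results of these data known. Exon lengths and overlaps come from GENCODE on GRCm38, promoters from RefSeq on GRCm38.p6.

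Libraries with the same title date recur across tissues within a genotype. Among KEP libraries other than tumor, those of 1 date deviated from their group means in the same way in 18 of 18 pairs (median correlation over genes 0.265), and among WT libraries other than mammary gland in 7 of 18 (median 0.0897). Pairs with a tumor or mammary gland library passed 0.1 in 1 of 12 for KEP and 0 of 12 for WT, and mammary gland replicate 4 shares its date with no other library. The pairing was taken from the shared dates in the labels, and the deviations bear it out only for KEP blood, spleen, lung and lymph node.

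Alternatives were RLE and upper-quartile factors, pan-T scaling, no filter and a minimum count of 50, DESeq2 1.42.0, limma-voom 3.58.1, sorted cells as a covariate, a minimum change of 2-fold, subsets of libraries, the title date as a block and leaving out each library.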

Additional observations from a re-analysis of the deposited data

Results flagged for a closer look

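Junb in WT mammary gland stood apart in 1 library: replicate 2 had 3585 CPM, while the other 3 mammary gland libraries had 1837, 1554 and 1542 CPM. Its gap to the next library was 0.856 of the whole range of the group, above the critical share of 0.829 for 4 libraries. Only mammary gland had enough libraries for this check, and of its 10 sets of values, 1 for each gene, this was the only one past the limit. Chance flags about 1 in 20 groups. Replicate 2 was also the mammary gland library with the most pan-T transcripts (29.8% of the WT spleen mean, against 2.83% to 7.93% in the others) and with 417 CPM of Foxp3, and the part of this in the Junb level was not tested.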

How the results depend on the processing

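Of 64 called values of single genes, recomputed under their alternatives to 1423 values, 1367 kept their direction and their side of the threshold, 53 were no longer called and 3 reversed, all 3 under pan-T scaling: Maff between tumor and KEP lung (0.34), and Fosl2 (3.31) and Junb (2.45) between mammary gland and WT lung. That scaling moved the median of all genes by -3.32 between tumor and mammary gland, 4.21 between mammary gland and blood, spleen and lymph node, 4.12 between mammary gland and WT lung and by less than 1 elsewhere. The number of members called in tumor against mammary gland was 6. Under pan-T scaling it was 10, where 13994 of all 15202 genes were called lower and 130 higher. It was 5 with sorted cells as a covariate (Jun was lost) and 4 with only the libraries compared. Leaving out each library gave 6 to 7. In KEP against WT lung, 1 as reported, it was 0 under pan-T scaling, without the filter and at a minimum change of 2-fold, 2 with DESeq2 and with the 24 libraries of 4 tissues, 4 with only the lung libraries, and 0 to 1 leaving out each library. In KEP against WT blood, 0 as reported, it was 1 with the 24 libraries. In tumor against KEP lung, 4 as reported, it was 2 at a minimum change of 2-fold and with only the libraries compared, and 3 to 6 leaving out each library. In mammary gland against WT lung, 9 as reported, it was 5 at a minimum change of 2-fold. In WT blood against spleen, 2 as reported, it was 1 under pan-T scaling and with limma-voom, and 1 to 2 leaving out each library. In KEP blood against spleen, 2 as reported, it was 0 under pan-T scaling, 1 without the filter and with limma-voom, and 1 to 2 leaving out each library. In KEP lymph node against spleen, 0 as reported, it was 2 with only the libraries compared. The cause was not tested, except that a minimum change removes smaller changes by its construction. With the title date as a replicate block the counts were 10 in lung, tumor and mammary gland against blood, spleen and lymph node, 4 in tumor against KEP lung, 9 in mammary gland against WT lung and 2 in each blood comparison; as a random replicate block in limma-voom they were 6 in tumor against mammary gland and 1 in KEP against WT lung, so the paired fits changed no count. Comparisons with 3 libraries in a group, and genes near 0 counts, limit what can be detected.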
